A study of Mus musculus with 18 samples.

Results

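The genes described here carry glucose into the cell, break it down to pyruvate and lactate, export the lactate, or are induced when oxygen is low. They were listed by name: 21 genes of glucose transport, glycolysis and lactate export and 13 genes of the hypoxia response, 34 of the 49671 gene models in the count files. All 34 had enough counts to be tested. RNA was sequenced from CD8+ and CD4+ T cells sorted by flow cytometry from tumors of B16f10-OVA, a mouse melanoma line that carries the antigen ovalbumin, which had grown under the skin of B6 mice for 12 days. In all mice the gene of miR-155, a microRNA of activated lymphocytes, was floxed, either without Cre ("floxed") or with Cre driven by the CD4 promoter, which is active across the T cell lineage, CD8 cells included ("deficient"). The remaining set of mice was deficient and had received checkpoint antibodies to PD-1/PD-L1 and to CTLA-4, receptors and a ligand that restrain T cells, on days 3, 6 and 9 ("treated"; the effect of the antibodies is called the blockade). Each of the 6 groups (CD8 and CD4 cells of floxed, deficient and treated mice) has 3 libraries, made from pools of 2 to 3 tumors. The labels do not say that the pools of different groups are matched, and p-values therefore describe the spread among these libraries and no more. Mice with Cre and no floxed gene, and floxed mice with antibodies, were not analysed here, so an effect of Cre itself cannot be told apart from the deletion, and the blockade was measured in deficient cells alone. Age, sex and whether the untreated mice received control antibodies are not stated.

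Glycolysis splits glucose into pyruvate in the cytosol, and activated effector T cells are known to raise its flux and to turn much of the pyruvate into lactate, which leaves the cell through monocarboxylate transporters. In low oxygen the prolyl hydroxylases no longer mark the HIF alpha subunits (HIF-1 alpha and HIF-2 alpha, the product of Epas1) for destruction, and HIF then binds a short DNA element whose core reads ACGTG or GCGTG and raises most of the genes described here. In T cells, signals of the antigen receptor are known to raise HIF-1 alpha as well, also when oxygen is ample.

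Promoters of 4 members are shown first, because these genes rose together in CD8 cells under the blockade (below) and carry ACGTG in different numbers. Each line gives the 250 bases before the start of the transcript, from RefSeq (GRCm38.p6), 5′ to 3′ on the gene's strand, with every ACGTG and its reverse complement CACGT in capitals. The windows lie at chr7:46845554-46845803 on the plus strand for Ldha, chr11:120948817-120949066 on the plus strand for Slc16a3, chr8:124949255-124949504 on the minus strand for Egln1 and chr8:45999851-46000100 on the minus strand for Ankrd37.
Ldha: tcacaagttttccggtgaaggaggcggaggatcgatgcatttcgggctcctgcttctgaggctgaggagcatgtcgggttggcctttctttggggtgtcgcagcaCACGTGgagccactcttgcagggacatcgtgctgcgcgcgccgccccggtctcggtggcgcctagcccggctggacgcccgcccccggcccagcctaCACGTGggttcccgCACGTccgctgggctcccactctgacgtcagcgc
Slc16a3: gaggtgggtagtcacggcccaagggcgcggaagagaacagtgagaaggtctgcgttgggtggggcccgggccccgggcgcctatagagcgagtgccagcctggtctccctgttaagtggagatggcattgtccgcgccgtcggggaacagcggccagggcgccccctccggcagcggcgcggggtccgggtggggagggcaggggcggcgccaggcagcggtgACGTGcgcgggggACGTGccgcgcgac
Egln1: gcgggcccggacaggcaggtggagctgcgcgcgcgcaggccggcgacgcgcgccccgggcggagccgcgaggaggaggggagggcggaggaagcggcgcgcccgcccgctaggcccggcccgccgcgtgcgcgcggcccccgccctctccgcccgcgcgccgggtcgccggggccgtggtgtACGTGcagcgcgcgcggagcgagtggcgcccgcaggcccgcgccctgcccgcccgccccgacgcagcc
Ankrd37: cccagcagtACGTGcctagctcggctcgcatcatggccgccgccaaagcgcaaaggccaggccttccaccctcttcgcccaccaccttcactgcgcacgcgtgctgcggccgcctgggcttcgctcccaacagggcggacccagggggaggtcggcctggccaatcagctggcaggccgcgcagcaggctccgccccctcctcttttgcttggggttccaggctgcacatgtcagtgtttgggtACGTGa
In Ldha, the enzyme that turns pyruvate into lactate, the element stood in 3 clusters, and the pairs that begin 145 and 48 bases before the start overlap as CACGTG, the sequence also known as the E-box of Myc and related factors. Slc16a3, a lactate exporter, had its matches 27 and 14 bases before the start, Egln1 had 1 match 68 bases before it, and Ankrd37 had matches 241 and 6 bases before it. GCGTG is not marked: on either strand, the 300-base windows held it 2 times for Ldha, 0 times for Slc16a3, 1 time for Egln1 and 2 times for Ankrd37. Of the 34 members, 31 had an entry in the promoter table, with 50 windows of 300 bases in all (250 before and 50 after the start; Slc2a3, Ndrg1 and Epas1 had none). ACGTG on either strand was found in 27 of the 50 windows (54%) and in 19.6% of all 32851 windows in the table. GCGTG on either strand was found in 28 of the 50 (56%) and in 32.4% of all windows. Of the 15 members with an entry that rose under the CD8 blockade, 12 had ACGTG in a window (80%, against 74.2% of all 31 members). Pfkp, Tpi1 and Eno1 rose as well but had no ACGTG in any window, and another Ldha window had none either. A link between the element and the rise was not tested. These shares were not adjusted for base composition, and a match describes letters, not binding.

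The libraries held 3.2 to 11.65 M counts (median 7.21 M). Mir155hg, the host transcript of the deleted microRNA, was at 9.06 to 20.5 CPM (counts per M counts, TMM scaled) in floxed CD8 libraries and 0.235 to 1.9 CPM in deficient ones. In CD4 cells it was at 4.87 to 8.22 CPM in floxed and 0 to 0.648 CPM in deficient libraries, and in treated cells of both kinds at 0 to 0.524 CPM. Cd4 averaged 1.44 to 1.83 CPM in the CD8 groups. Cd8a was at 14.6 to 150 CPM in floxed CD4 libraries, 1.83 to 17.5 CPM in treated CD4, 0.136 to 0.283 CPM in deficient CD4 and 624 CPM or more in every CD8 library. Transcripts of other cells differed between the groups. Melanoma markers (15 genes, none at 0 in any group) summed to 175 to 216 CPM in floxed, 1488 to 3395 in deficient and 386 to 1852 in treated CD8 libraries, and to 167 to 716, 1988 to 4682 and 477 to 2161 in CD4 libraries. Macrophage and monocyte markers (20 genes, none at 0 in any group) summed to 1238 to 2751, 2104 to 3808 and 1881 to 2078 CPM in the CD8 groups and to 13891 to 28467, 4898 to 6761 and 4839 to 6804 CPM in the CD4 groups. The T cell markers (10 genes) summed to 4620 to 5791, 3249 to 3489 and 5322 to 5556 CPM in CD8 cells and to 2262 to 3256, 3118 to 3494 and 3887 to 4740 CPM in CD4 cells. In these bulk libraries, fewer cells of a type and less RNA per cell cannot be told apart. The 10 most counted gene models took 30.6% of the counts in replicate 2 of treated CD8 cells and 18.6% in replicate 3 of deficient CD4 cells, against 7.35 to 11% elsewhere.

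**Figure D1:**
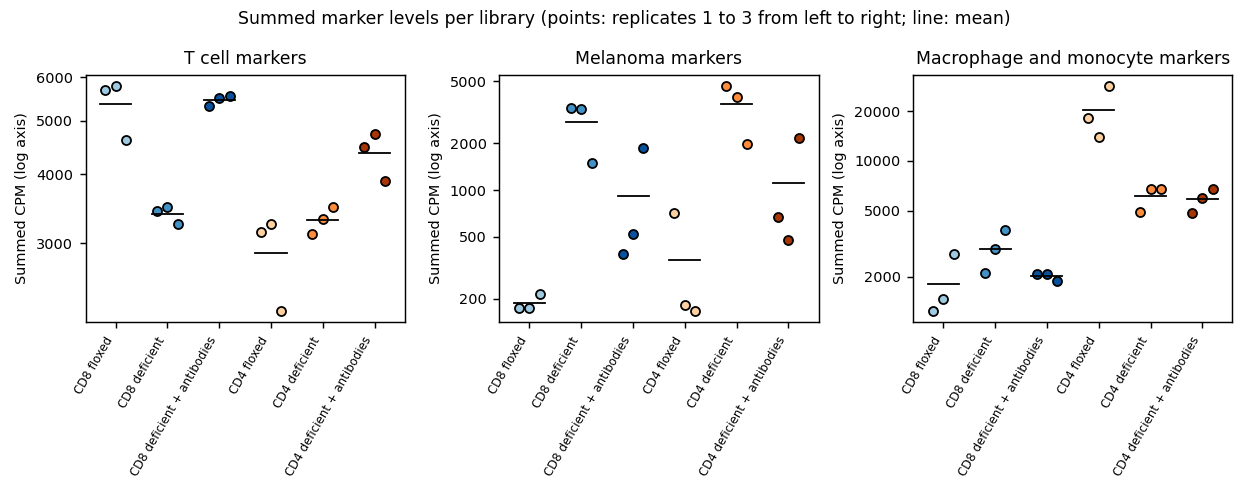
Summed level of the T cell, melanoma, and macrophage and monocyte markers (y axis, TMM-scaled CPM on a log axis) in each of the 18 libraries (points) by group (x axis), with the group mean as a line. Deficient libraries of both cell types have the highest melanoma sums (1488 to 4682 CPM), and floxed CD4 libraries the highest macrophage sums (13891 to 28467 CPM).

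Per length (RPKM, counts per M counts per 1 kb of all exons of the gene model, as the count files sum them), the members spanned a wide range. Ldha stood highest with a median of 359 RPKM over the 18 libraries (range 251 to 494), followed by the aldolase Aldoa (348), the pyruvate kinase Pkm (266) and the triosephosphate isomerase Tpi1 (243). The ranges of Ldha and Aldoa (217 to 425) overlap, so their order is not settled by these libraries. It also depends on the length used: per length of the longest coding transcript, Aldoa stood at 845 and Ldha at 655. Among hypoxia genes the lipid droplet protein Hilpda stood highest (63.1, range 22.8 to 108). The lowest were Epas1 (2.4), the peptide hormone precursor Adm (1.21) and the collagen hydroxylase subunit P4ha2 (0.493). Sequence is shared with other genes for some members. Of the 50-base windows of Gapdh's own transcript, 82.5% also occur in transcripts of other genes, and the shares were 72.2% for Eno1, 68% for Pgk1, 41.5% for Pgam1 and 34.4% for Pkm. The counting command in the file headers names no option for reads that map to several places, and Gapdh was counted at only 35.8 to 55.7 CPM. How shared reads were counted was not tested, and levels and fold changes of these 5 genes are uncertain. Smaller shares were found for Gpi1 (19.3%), Ldha (16.6%), Aldoa (13.5%) and Tpi1 (7.51%), whose levels are less certain for the same reason.

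In CD8 cells the members differed both ways between deficient and floxed mice (the deletion). Of the 34, 6 were higher and 5 lower in deficient than in floxed cells, at an adjusted p under 0.05 in edgeR's quasi-likelihood test. Over all 14080 genes tested, 9.65% were higher and 9.61% lower. The glycolysis genes had 1 higher and 4 lower of 21 (median log2 fold change -0.17) and the hypoxia genes 5 higher and 1 lower of 13 (median -0.02), beside a median of -0.01 over all genes. In CD4 cells 7 members were higher in deficient cells and none was lower, against 4.61% higher and 7.06% lower among all genes. These were 6 of 21 glycolysis genes (median 0.30) and 1 of 13 hypoxia genes (median 0.42, all genes 0.01), and 29 of the 34 fold changes were positive.

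The blockade gave the most calls. In CD8 cells 18 of 34 members were higher in treated than in untreated deficient cells and none was lower, where 8.25% of all genes were higher and 5.53% lower. Pdk1 was called lower with RLE size factors, without a filter on low counts, with a replicate block, in CD8 libraries alone and in DESeq2. The 18 higher members were 11 of 21 glycolysis genes (median 0.47) and 7 of 13 hypoxia genes (median 0.62), beside a median of -0.03 over all genes. The deletion and the blockade in 1 cell type share the untreated deficient libraries, so a low value there enters both comparisons with opposite sign. In CD4 cells no member passed in edgeR or DESeq2, with 3 and 4 members at an unadjusted p under 0.05. Among all genes 0.0852% were higher and 0.0568% lower there. The medians were 0.08 for glycolysis and 0.03 for hypoxia genes (all genes -0.01).

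**Figure D2:**
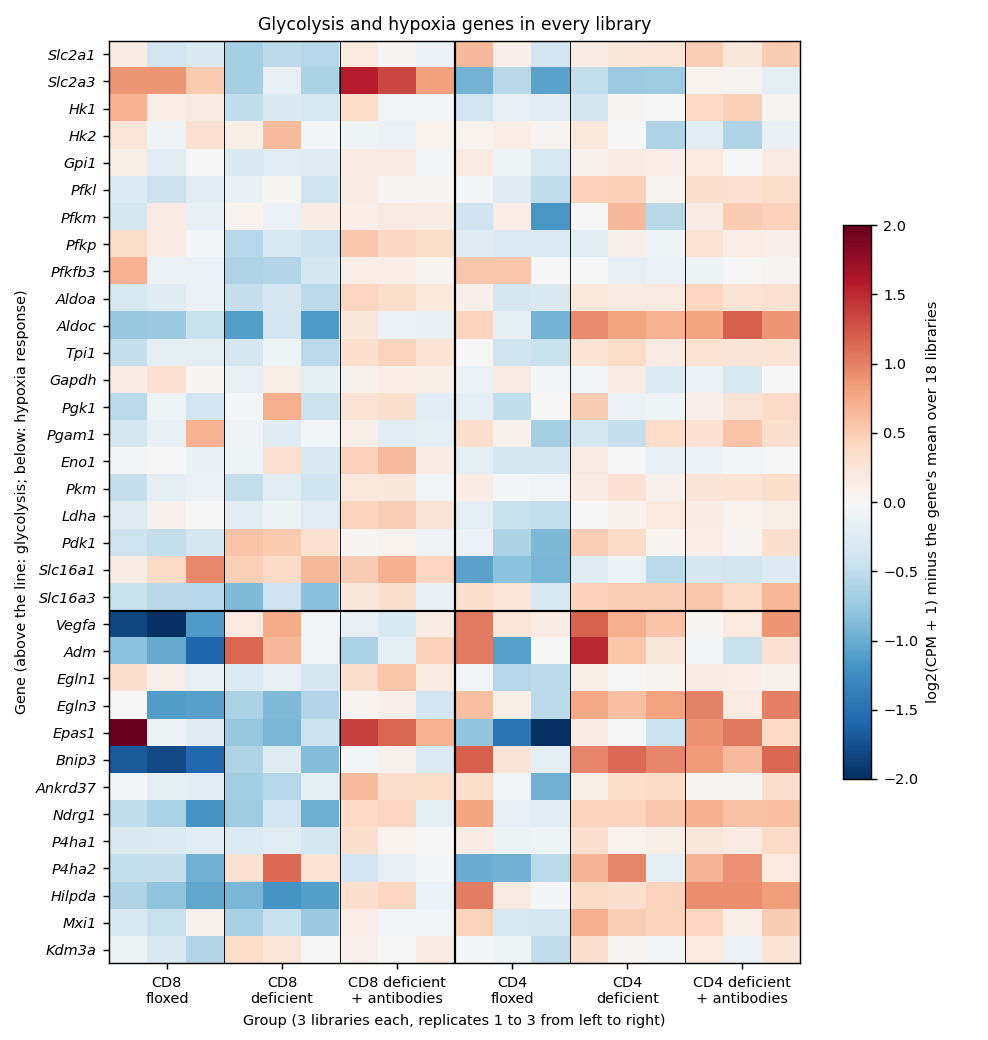
Level of each of the 34 genes (rows, glycolysis above the line, hypoxia response below) in each of the 18 libraries (columns), as log2(CPM + 1) minus the gene's mean over all libraries; red is above and blue below that mean. Slc2a3, Pfkp and Aldoa are red in all 3 treated CD8 libraries, and Vegfa and Bnip3 are blue in all 3 floxed CD8 libraries.

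**Figure D3:**
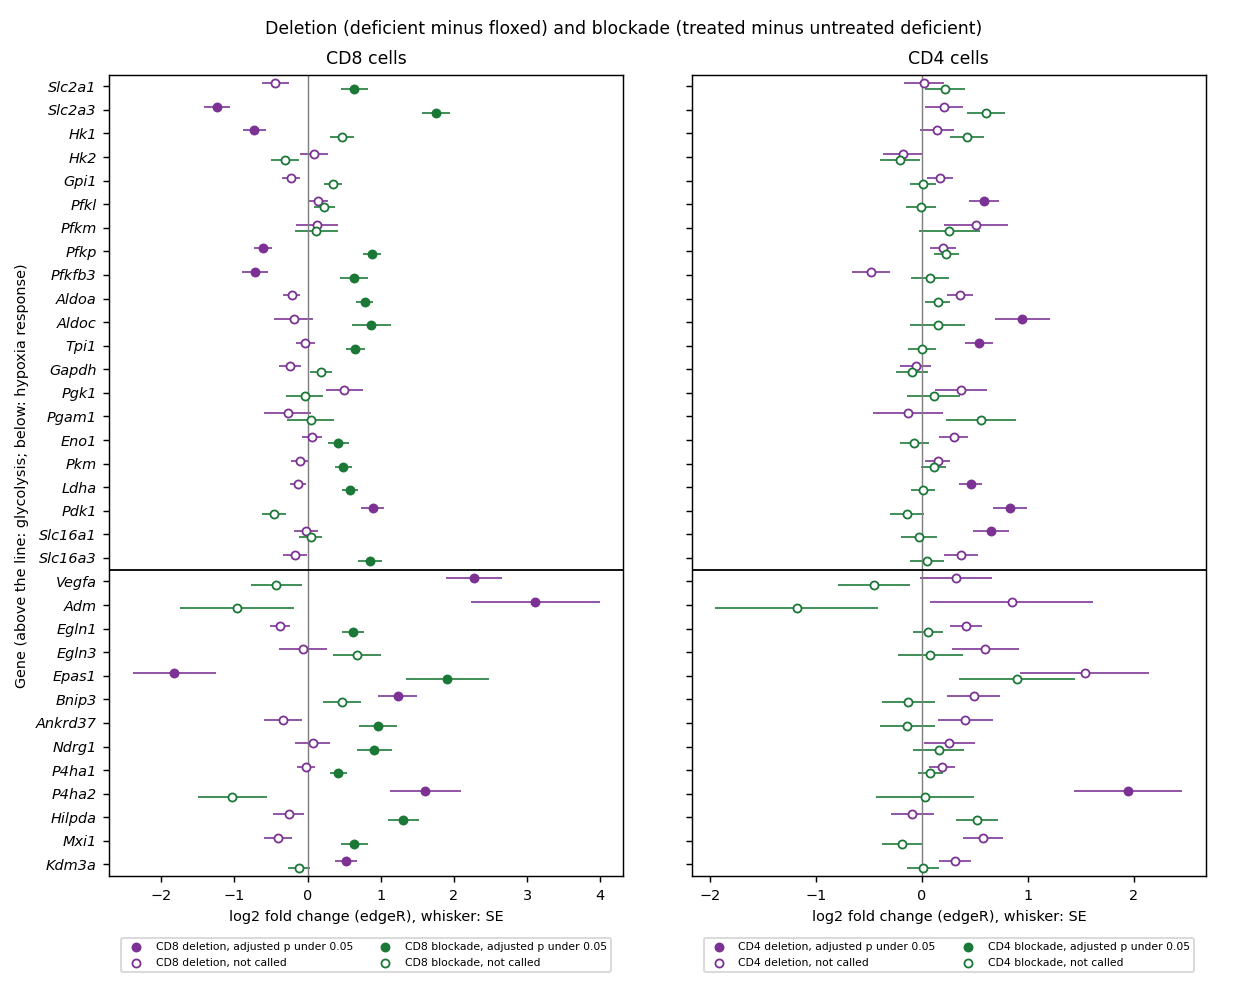
Log2 fold change with its standard error (x axis) for each gene (y axis) for the deletion (deficient minus floxed) and the blockade (treated minus untreated deficient), in CD8 cells (left) and CD4 cells (right); filled points passed an adjusted p under 0.05. In CD8 cells 18 filled points of the blockade lie to the right of 0, and in CD4 cells the blockade has none.

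Glucose transport showed the largest single response among the called glycolysis genes. Slc2a3 (ENSMUSG00000003153, chr6:122727809-122801640, minus strand, GRCm38) encodes GLUT3, a glucose transporter of high affinity. In CD8 cells it was at 488, 488 and 382 CPM in floxed, 167, 236 and 170.2 CPM in deficient and 787, 673 and 471 CPM in treated libraries. The deficient libraries lay below both other groups, while floxed and treated libraries overlapped. It was 2.37-fold lower in deficient than in floxed cells (log2 -1.24 ± 0.18 SE, adjusted p = 0.000101), and treated cells had 3.37-fold more than untreated deficient cells (1.75 ± 0.19, adjusted p = 5.66e-06). In CD4 cells the values were 137, 180.1 and 126 CPM in floxed, 191, 159.9 and 161 CPM in deficient and 278, 276 and 231 CPM in treated libraries. The 3 treated CD4 libraries were above all others, but the difference did not pass (0.61 ± 0.18, adjusted p = 0.194, and 0.63 with adjusted p = 0.00248 when genes of low count were kept in the fit). Slc2a1, which encodes GLUT1, the transporter of most dividing cells, was at 137, 94.4 and 101 CPM in floxed, 77.7, 85.2 and 82.5 CPM in deficient and 142, 126 and 114 CPM in treated CD8 libraries. Its deficient libraries were also the lowest, with no call for the deletion (-0.44 ± 0.19, adjusted p = 0.111) and a rise under the blockade (0.64 ± 0.19, adjusted p = 0.0284). In CD4 cells Slc2a1 was at 194, 132 and 94.8, then 137, 144 and 146, then 174, 144 and 176 CPM, and the groups overlapped. Per length, Slc2a3 over Slc2a1 had a median of 1.82 (floxed), 1.04 (deficient) and 2.59 (treated) among CD8 libraries, and of 0.643, 0.537 and 0.771 in CD4 libraries. The ratio was at least 1.73 in every floxed and treated CD8 library and at most 0.930 in every CD4 library. Per length of the longest coding transcript the CD8 medians were 3.10, 1.77 and 4.40, and the CD4 ratios were 0.582 to 1.58.

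Among the first steps of glycolysis in CD8 cells, Hk1, Pfkp and Pfkfb3 were lowest in the deficient group, as Slc2a3 was, and Hk2 was not. The T cell marker sums were lowest there too, at 3249 to 3489 CPM. They were 4620 to 5791 CPM in floxed and 5322 to 5556 CPM in treated CD8 libraries. A link between these sums and the genes was not tested. Hk1 and Hk2 encode hexokinases, which trap glucose as glucose 6-phosphate. Hk1 was at 261, 176 and 181 CPM in floxed, 113, 131 and 128 CPM in deficient and 206, 154 and 156 CPM in treated CD8 libraries. It fell with the deletion (-0.73 ± 0.16, adjusted p = 0.00358), with no overlap between the groups, and its rise under the blockade missed the threshold (0.47 ± 0.16, adjusted p = 0.0574). Hk2 passed in no comparison: its CD8 libraries were at 113, 90.7 and 118, then 103, 148 and 92.8, then 89.2, 87.7 and 100 CPM, and its CD4 libraries at 100.3, 104 and 98.8, then 110.0, 94 and 62.5, then 81.2, 62.4 and 86.2 CPM.

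Pfkp (ENSMUSG00000021196, chr13:6579768-6648777, minus strand) encodes the platelet form of phosphofructokinase, the committed step of the pathway. Its CD8 values were 657, 572 and 498 CPM in floxed, 343, 409 and 379 CPM in deficient and 738, 682 and 654 CPM in treated libraries. It fell with the deletion (-0.61 ± 0.12, adjusted p = 0.00108) and was higher in treated cells (0.88 ± 0.12, adjusted p = 5.53e-05). In CD4 cells it was at 432, 424 and 423, then 435, 548 and 482, then 614, 557 and 548 CPM, and passed in neither comparison (0.20 ± 0.12 and 0.23 ± 0.12). The liver form Pfkl behaved otherwise. It rose with the deletion in CD4 cells, from 192, 164 and 137 CPM to 268, 272 and 203 CPM (0.59 ± 0.14, adjusted p = 0.00804), with 244, 242 and 253 CPM in treated CD4 cells, and passed in neither CD8 comparison (0.14 ± 0.14 and 0.23 ± 0.14). The muscle form Pfkm stayed between 8.21 and 31.1 CPM with no call. Pfkfb3, whose product makes fructose 2,6-bisphosphate, the activator of phosphofructokinase, was at 124, 70.0 and 70.0 CPM in floxed, 50, 50.7 and 59.6 CPM in deficient and 83.9, 84.0 and 79.4 CPM in treated CD8 cells. Its fall with the deletion (-0.72 ± 0.18, adjusted p = 0.00901) rested in part on floxed replicate 1, since without it the fold change was -0.41 (adjusted p = 0.065). Its rise in treated CD8 cells was 0.63 ± 0.19 (adjusted p = 0.0287).

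Aldolase and triosephosphate isomerase make the 3-carbon sugars. Aldoa was at 957, 1004 and 1097 CPM in floxed, 867, 944 and 815 CPM in deficient and 1599, 1526 and 1382 CPM in treated CD8 cells, so that the treated libraries lay above both other groups (blockade 0.78 ± 0.12, adjusted p = 0.000196; deletion -0.22 ± 0.12, adjusted p = 0.212). In CD4 cells it was at 1275, 929 and 971, then 1385, 1342 and 1349, then 1599, 1442 and 1472 CPM, and the deletion narrowly missed the threshold (0.36 ± 0.12, adjusted p = 0.0524). Tpi1 rose in treated CD8 cells, from 503, 594 and 436 to 788, 859 and 761 CPM (0.65 ± 0.13, adjusted p = 0.00222), with 459.9, 551 and 551 CPM in floxed cells. It also rose with the deletion in CD4 cells, from 634, 479 and 464 to 768, 818 and 706 CPM (0.54 ± 0.13, adjusted p = 0.0105), and stood at 768, 756 and 764 CPM in treated ones. Aldoc, the scarcer aldolase of brain and other tissues, rose from 45.9, 29.4 and 16.9 to 65.6, 58.8 and 55.1 CPM in CD4 cells (0.95 ± 0.26, adjusted p = 0.0221) and was at 58.7, 78.3 and 62.9 CPM in treated ones. In CD8 cells Aldoc was at 19.4, 19.7 and 24.4, then 15.2, 25.4 and 14.8, then 39.5, 31.0 and 30.3 CPM, and only the blockade passed (0.87 ± 0.27, adjusted p = 0.035). The isomerase Gpi1 passed in no deletion or blockade comparison, with 332 to 468 CPM over all libraries.

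In the later steps, Pkm, which makes pyruvate, rose in treated CD8 cells from 937 to 1111 CPM in deficient libraries to 1257 to 1516 CPM (0.49 ± 0.12, adjusted p = 0.00719), and the enolase Eno1 rose from 190.5 to 285 CPM to 257 to 358 CPM (0.42 ± 0.14, adjusted p = 0.0493). The Eno1 groups overlapped, and those of Pkm did not. Without treated CD8 replicate 1 the adjusted p of Pkm was 0.0551, and Eno1 lost its call in 4 of 6 fits that left out 1 library (adjusted p up to 0.247). Gapdh, Pgk1 and Pgam1, which carry out the steps between, passed in no comparison, and all 5 genes share much of their sequence with other transcripts, as given above.

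Pyruvate is turned into lactate by Ldha or burned in the mitochondria. Ldha (ENSMUSG00000063229, chr7:46841475-46855627, plus strand), whose promoter is shown above, was at 979, 1231 and 1151 CPM in floxed, 1000, 1086 and 993 CPM in deficient and 1583, 1636 and 1390.0 CPM in treated CD8 cells. The treated libraries lay above the others (blockade 0.58 ± 0.11, adjusted p = 0.00179), and floxed and deficient libraries overlapped (deletion -0.13 ± 0.11, adjusted p = 0.49). In CD4 cells Ldha was at 1029, 854 and 829.6 CPM in floxed, 1163, 1232 and 1330.0 CPM in deficient and 1283, 1215 and 1264 CPM in treated cells. There it rose with the deletion (0.46 ± 0.11, adjusted p = 0.0121) with no overlap, and the blockade added 0.01 ± 0.11 (adjusted p = 0.98).

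Pdk1 (ENSMUSG00000006494, chr2:71873224-71903858, plus strand) encodes the kinase that shuts pyruvate dehydrogenase and so keeps pyruvate out of the mitochondria. It was 1 of 2 members, with P4ha2, that rose with the deletion in both cell types. CD8 libraries were at 115, 109.9 and 122 CPM in floxed, 229, 221 and 191 CPM in deficient and 158, 161 and 147 CPM in treated cells. CD4 libraries were at 141, 100.5 and 81.9 CPM in floxed, 216, 201 and 158 CPM in deficient and 168, 159 and 193 CPM in treated cells. The deficient libraries lay above the floxed ones in both cell types, by 0.89 ± 0.16 in CD8 cells (adjusted p = 0.000532) and by 0.83 ± 0.16 in CD4 cells (adjusted p = 0.00184). In an edgeR fit with summed melanoma and macrophage markers as covariates the values were 0.38 (adjusted p = 0.613) and 0.16 (adjusted p = 0.934). The melanoma sums are highest in the same deficient groups, and a link to Pdk1 was not tested. The treated CD8 libraries fell between the other CD8 groups without overlap, and the blockade missed the threshold (-0.46 ± 0.16, adjusted p = 0.0534), though it passed in 5 alternatives (adjusted p from 0.0159 to 0.0402).

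The monocarboxylate transporters Slc16a1 (MCT1) and Slc16a3 (MCT4), the latter the usual lactate exporter of glycolytic cells, differed from each other. Slc16a3 was at 120.3, 112 and 111 CPM in floxed, 88.8, 123 and 92.0 CPM in deficient and 193, 206 and 150.1 CPM in treated CD8 cells, and only the blockade passed (0.85 ± 0.16, adjusted p = 0.00108). In CD4 cells it was at 207, 194 and 133, then 226, 232 and 232, then 239, 215 and 260.5 CPM, with no call (0.37 ± 0.16 for the deletion and 0.05 ± 0.16 for the blockade). Slc16a1 rose with the deletion in CD4 cells, from 50, 59.8 and 55.7 to 89.3, 97.4 and 72.4 CPM (0.65 ± 0.17, adjusted p = 0.0159), with 84.2, 81.6 and 88.7 CPM in treated ones. In CD8 cells Slc16a1 was at 118, 138 and 208, then 148, 138 and 169, then 151, 175 and 143 CPM, and did not pass (-0.02 ± 0.16 and 0.04 ± 0.16). Per length, Slc16a3 over Slc16a1 was 0.443 to 1.07 over all CD8 libraries and 1.99 to 3.44 over all CD4 libraries, with no overlap between the cell types. With the longest coding transcripts these ranges were 0.544 to 1.31 and 2.44 to 4.23.

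**Figure D4:**
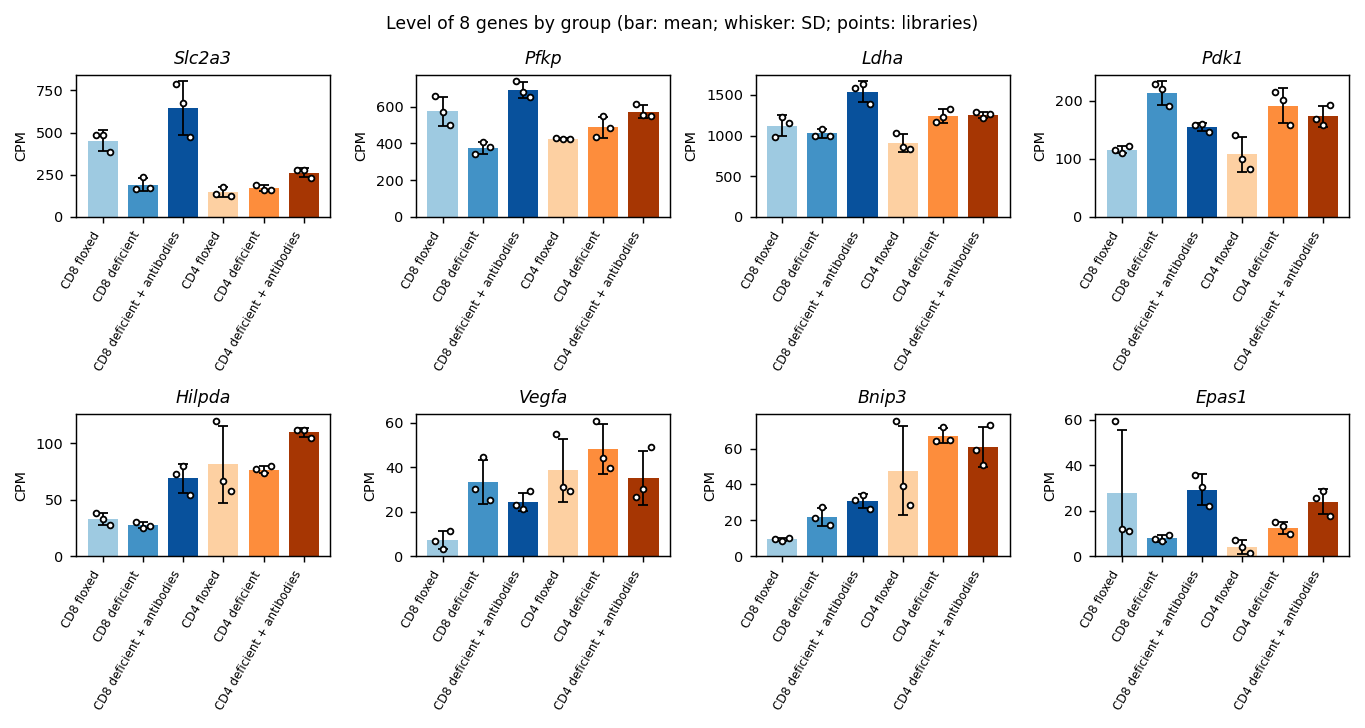
Level of 8 genes (y axis, TMM-scaled CPM; one panel per gene) in the 6 groups (x axis); bars are means, whiskers the SD over 3 libraries (cut at 0 for Epas1 in floxed CD8 cells) and points the libraries. Slc2a3 and Pfkp are lowest among CD8 groups in the deficient group, Pdk1 is highest there, and 1 floxed CD8 library holds Epas1 at 59.6 CPM against 12.2 and 11 CPM in the other two.

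Among the secreted factors of the hypoxia response, Vegfa (ENSMUSG00000023951, chr17:46016993-46032369, minus strand), which drives vessel growth, was at 6.7, 3.43 and 11.4 CPM in floxed CD8 cells, 30.2, 44.4 and 25.2 CPM in deficient ones and 23.2, 21.1 and 29.1 CPM in treated ones. All 6 deficient and treated libraries lay above the floxed ones, and the deletion gave a 4.81-fold rise (2.27 ± 0.38, adjusted p = 0.000548). In CD4 cells Vegfa was at 55.0, 31.3 and 29.4, then 60.9, 44.1 and 39.6, then 26.6, 30.1 and 49.2 CPM, with overlap throughout and no call (0.32 ± 0.34 and -0.45 ± 0.34). Adm, the precursor of adrenomedullin, rose with the deletion in CD8 cells too (3.11 ± 0.88, adjusted p = 0.0169), but from 0 to 0.713 CPM (0 to 5 counts) to 1.90 to 5.66 CPM (12 to 48 counts). Without deficient CD8 replicate 1 its adjusted p was 0.0774.

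Next come the sensors of oxygen and their targets. Epas1 (ENSMUSG00000024140, chr17:86753907-86833410, plus strand) encodes HIF-2 alpha. It was at 59.6, 12.2 and 11 CPM in floxed, 7.42, 6.51 and 9.52 CPM in deficient and 35.5, 30.6 and 21.9 CPM in treated CD8 cells. The call for the deletion (-1.82 ± 0.57, adjusted p = 0.0342) rests on floxed replicate 1, without which it was -0.60 (adjusted p = 0.318), and it was also lost without any one of the 3 deficient replicates. The treated libraries lay above the deficient ones (1.91 ± 0.57, adjusted p = 0.0361), and this call was lost in 5 of 6 fits that left out 1 library, with adjusted p up to 0.133. In CD4 cells Epas1 was at 7.24, 4.12 and 1.24 CPM in floxed, 14.9, 13.2 and 9.61 CPM in deficient and 25.4, 28.6 and 17.8 CPM in treated libraries. These groups did not overlap, yet neither step passed (1.54 ± 0.61, adjusted p = 0.128, and 0.90 ± 0.55, adjusted p = 0.568). Egln1, the main prolyl hydroxylase that marks HIF alpha, was at 138, 118 and 98.3 CPM in floxed, 89.7, 96.9 and 86.2 CPM in deficient and 138, 159.7 and 123 CPM in treated CD8 cells, and rose under the blockade (0.62 ± 0.15, adjusted p = 0.0068). Without treated CD8 replicate 2 the adjusted p was 0.0511. The related hydroxylase Egln3, at 7.25 to 35.2 CPM over all libraries, passed in neither deletion nor blockade.

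The other hypoxia genes split between the deletion and the blockade. Hilpda (ENSMUSG00000043421, chr6:29272488-29275446, plus strand), whose product slows the breakdown of stored lipid, was at 38.1, 33.0 and 27.8 CPM in floxed, 30.6, 25.2 and 26.8 CPM in deficient and 73, 79.5 and 54.1 CPM in treated CD8 cells, a 2.48-fold rise under the blockade (1.31 ± 0.21, adjusted p = 0.000331). In CD4 cells it was at 119.5, 66.2 and 57.7, then 76.9, 73.4 and 79.7, then 112, 112 and 105 CPM. There the treated libraries lay above the deficient ones, without a call (0.52 ± 0.20, adjusted p = 0.332), and floxed replicate 1 stood with the treated ones. Bnip3, a mitochondrial protein that promotes mitophagy, rose with the deletion in CD8 cells, from 9.41, 8.52 and 10.3 to 21.1, 27.2 and 17.4 CPM (1.23 ± 0.27, adjusted p = 0.00379), and was at 31.4, 34.4 and 26.5 CPM in treated cells (0.47 ± 0.26, adjusted p = 0.251). Its CD4 libraries were at 75.6, 39 and 28.6 CPM in floxed and 50.9 to 73.0 CPM in deficient and treated cells, with no call. Counts of Bnip3 are less certain, since 21.9% of its 50-base windows occur in other genes' transcripts.

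Kdm3a, a histone demethylase, rose with the deletion in CD8 cells from 145, 128 and 104 to 201, 185 and 156 CPM (0.52 ± 0.15, adjusted p = 0.019). This call was lost without floxed replicate 3 or deficient replicate 1 or 2 (adjusted p up to 0.108). P4ha2 rose with the deletion in both cell types, from 1.25 to 2.15 CPM to 4.28 to 8.56 CPM in CD8 cells (1.61 ± 0.48, adjusted p = 0.022, lost without floxed replicate 3 or deficient replicate 2) and from 1.18, 1.24 and 1.99 to 5.97, 7.62 and 2.83 CPM in CD4 cells (1.95 ± 0.51, adjusted p = 0.0153). Its paralog P4ha1 was far more abundant, at 114 to 191 CPM, and rose only under the CD8 blockade among the deletion and blockade comparisons (0.42 ± 0.12, adjusted p = 0.0198). So did Ankrd37, an ankyrin repeat protein (0.96 ± 0.26, adjusted p = 0.0164), Ndrg1, a stress-induced gene (0.91 ± 0.24, adjusted p = 0.0179), and Mxi1, an antagonist of Myc (0.64 ± 0.19, adjusted p = 0.0318). These 4 calls were each lost in 3 or 4 of 6 fits that left out 1 library (adjusted p up to 0.182).

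How far these calls held without single libraries and with other cells' markers as covariates differed by comparison. Of the 18 calls of the CD8 blockade, 7 were kept in each of the 6 fits that left out 1 library: Slc2a3, Pfkp, Aldoa, Tpi1, Ldha, Slc16a3 and Hilpda. The count was 10 without deficient CD8 replicate 1, 11 without replicate 3, 8 without treated CD8 replicate 1 and 10 without treated replicate 2. Slc2a1 lost its call in 5 of the 6 fits, and Pfkfb3 and Aldoc lost theirs in 4 (adjusted p up to 0.172). Of the 11 calls of the CD8 deletion, 6 were kept in every such fit (Slc2a3, Pfkp, Hk1, Pdk1, Vegfa and Bnip3), and of the 7 calls of the CD4 deletion only that of Pdk1. In CD4 cells 3 of the 7 were left without deficient replicate 1 or 2. Without floxed replicate 3 there were 2 left (Pdk1 and P4ha2), and Pfkfb3 then was lower (-0.65, adjusted p = 0.0433). Without floxed replicate 1, 5 were left and Aldoa, Bnip3, Egln1 and Mxi1 were higher as well. There Ldha lost its call without floxed replicate 3 or deficient replicate 3 (adjusted p up to 0.078), Tpi1 without floxed replicate 3 or deficient replicate 2 (up to 0.0706), and Pfkl without floxed replicate 3 or deficient replicate 1 (up to 0.0611). Slc16a1, P4ha2 and Aldoc each lost theirs in 4 of 6 fits (up to 0.106). With the summed melanoma and macrophage markers as covariates, no member passed for the deletion in edgeR in either cell type, with 1 member in CD8 and 4 in CD4 cells at an unadjusted p under 0.05. Over all genes that fit called 117 for the CD8 deletion and 9 for the CD4 deletion. In the same fit 9 members were higher under the CD8 blockade and none was lower. Of the 14080 genes tested, 440 were higher and 309 lower there. The 9 members were Slc2a3 (1.31, adjusted p = 0.000374), Pfkp (0.77), Aldoa (0.90), Tpi1 (0.83), Pkm (0.61), Ldha (0.64), Slc16a3 (0.86), Hilpda (1.28) and Mxi1 (1.04). Melanoma markers moved with the groups: 14 of 15 rose with the deletion in CD8 cells and 10 of 15 in CD4 cells. Under the blockade none of the 15 passed in either cell type, and their medians were -1.60 in CD8 and -1.72 in CD4 cells. Of 20 macrophage markers, 7 rose and 1 fell with the CD8 deletion, 14 fell with the CD4 deletion, and 1 rose and 13 fell under the CD8 blockade. Of 10 T cell markers, 4 fell with the CD8 deletion (median -0.66) and 4 rose under the CD8 blockade, where all 10 were positive (median 0.57). Of 10 dendritic cell and antigen presentation markers, 5 rose with the CD8 deletion (median 1.71), 4 fell with the CD4 deletion and 6 fell under the CD8 blockade (median -2.34). Melanoma sums did not overlap between floxed and deficient libraries (175 to 216 against 1488 to 3395 CPM in CD8, 167 to 716 against 1988 to 4682 CPM in CD4 cells). For the deletion, the covariate fit therefore cannot tell an effect of the deletion from one of other cells' transcripts. That fit held no T cell or dendritic cell markers. T cell sums did not overlap between deficient and treated CD8 libraries (3249 to 3489 against 5322 to 5556 CPM). Neither did dendritic cell and antigen presentation sums (792 to 1559 against 230 to 439 CPM). Whether the 9 calls of the CD8 blockade hold with these markers in the fit was not tested. The part of other cells' transcripts in the members' differences was not tested otherwise.

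CD8 cells were then compared with CD4 cells within each condition. In floxed mice 7 members were higher and 7 lower in CD8 than in CD4 cells, where 18.9% of all genes were higher and 20.2% lower. Higher in CD8 cells were Slc2a3 (1.61 ± 0.19, 3.06-fold), Slc16a1 (1.48 ± 0.17), Hk1 (0.61 ± 0.16), Pfkp (0.43 ± 0.12), Ldha (0.31 ± 0.11), Epas1 (2.66 ± 0.61) and Egln1 (0.48 ± 0.15). Lower in CD8 cells were Bnip3 (-2.35 ± 0.28, 5.11-fold), Vegfa (-2.48 ± 0.38, 5.58-fold), Hilpda (-1.30 ± 0.21), Ndrg1 (-0.97 ± 0.24), Egln3 (-0.84 ± 0.33), Adm (-2.53 ± 0.90) and Slc16a3 (-0.64 ± 0.16). The hypoxia genes thus had 6 of 13 lower and 2 higher, and the glycolysis genes 5 of 21 higher and 1 lower. The floxed CD4 libraries held the most macrophage transcripts (17 of the 20 markers were lower in CD8 cells) and some Cd8a. With the marker covariates Slc16a1 (2.50, adjusted p = 0.00584) was the one of these 14 that passed, beside Kdm3a, which then was lower in CD8 cells (-1.35, adjusted p = 0.0303). In that fit the signs of Epas1 (-1.42) and Egln1 (-0.13) turned. In fits that left out 1 library, 10 of the 14 calls were always kept, and those of Ldha (adjusted p up to 0.12), Adm (0.307), Egln1 (0.0571) and Egln3 (0.251) were lost in at least 2 of 6. Epas1 kept its call but was 1.43 without floxed CD8 replicate 1, and Adm was -1.37 without floxed CD4 replicate 1.

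In deficient mice most calls were lower in CD8 cells. Of the 34 members, 16 were lower in CD8 cells and 1 was higher, against 9.39% lower and 6.21% higher among all genes. The glycolysis genes had 9 of 21 lower (median -0.27) and the hypoxia genes 7 of 13 (median -0.71), where the median over all genes was -0.02. The largest gaps were in Aldoc (-1.70 ± 0.27), Bnip3 (-1.61 ± 0.26), Egln3 (-1.50 ± 0.32), Hilpda (-1.47 ± 0.21), Mxi1 (-1.19 ± 0.19), Slc16a3 (-1.18 ± 0.16) and Ndrg1 (-1.16 ± 0.24), with Slc2a1 at -0.80 ± 0.19 and Aldoa at -0.63 ± 0.12. Slc16a1 was the gene higher in CD8 cells (0.81 ± 0.17). Macrophage markers were lower in CD8 cells here too (7 of 20, with 1 higher, median -1.04), as were dendritic cell markers (7 of 10, median -1.83). No melanoma marker of 15 passed in edgeR, also not at an unadjusted p under 0.05. With the marker covariates 12 members passed (1 higher and 11 lower), where 579 of all genes were higher and 876 lower. In treated mice 3 members were higher in CD8 cells (Slc2a3 1.30 ± 0.18, Slc16a1 0.87 ± 0.17, Eno1 0.48 ± 0.14) and 4 lower (Aldoc -0.97 ± 0.26, Bnip3 -1.01 ± 0.26, Hilpda -0.68 ± 0.20, Egln3 -0.91 ± 0.32), against 9.36% higher and 11% lower among all genes. Bnip3, Hilpda and Egln3 were lower and Slc16a1 higher in CD8 than in CD4 cells in all 3 conditions. Of the 17 calls in deficient mice, 12 were kept with any library left out (those of Gpi1, P4ha1, Pfkl, Ankrd37 and Pfkp were not), and of the 7 in treated mice 3 were (Slc16a1, Slc2a3 and Bnip3), with 4 calls left without treated CD8 replicate 3 or treated CD4 replicate 1. The labels do not say whether CD8 and CD4 pools came from the same mice.

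**Figure D5:**
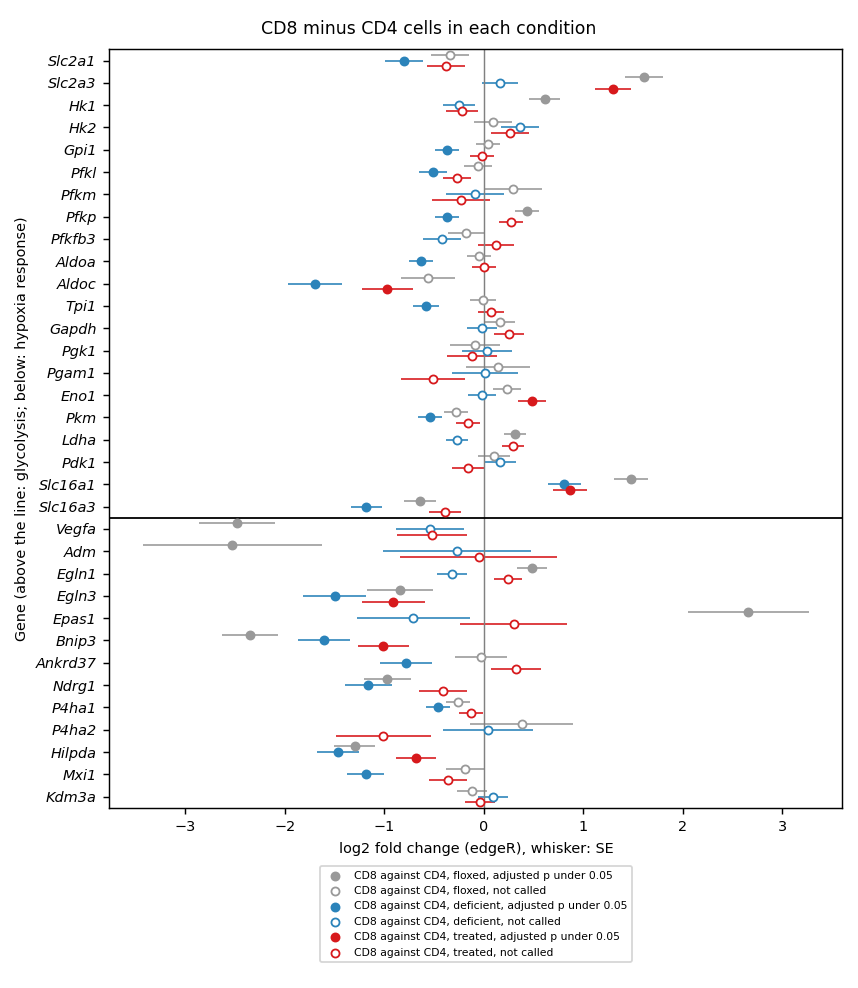
Log2 fold change of CD8 minus CD4 cells with its standard error (x axis) for each gene (y axis) in floxed, deficient and treated mice; filled points passed an adjusted p under 0.05. In deficient mice 16 of the 17 filled points lie to the left of 0, and Slc16a1 lies to the right of 0 in all 3 conditions.

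The difference of the deletion between the cell types was tested directly. It passed for 9 members, 8 with a lower and 1 with a higher value in CD8 than in CD4 cells, against 4.72% lower and 6.89% higher among all genes. Lower were Slc2a3 (-1.45 ± 0.26, adjusted p = 0.000934), Pfkp (-0.81 ± 0.17), Hk1 (-0.86 ± 0.23), Ldha (-0.58 ± 0.16), Aldoa (-0.58 ± 0.17), Egln1 (-0.80 ± 0.21), Mxi1 (-1 ± 0.27) and Epas1 (-3.37 ± 0.83). Vegfa was the member with a higher value (1.94 ± 0.51, adjusted p = 0.0184). In all 12 fits without 1 library the calls of Slc2a3, Pfkp, Egln1 and Epas1 were kept, with Epas1 at -2.12 without floxed CD8 replicate 1. That of Vegfa was lost without floxed CD4 replicate 1 (adjusted p = 0.0502), and those of Hk1, Ldha, Aldoa and Mxi1 were lost in 2 to 7 of the 12 (adjusted p up to 0.0737). Pdk1, called in both cell types, differed by 0.06 ± 0.22 (adjusted p = 0.91). The difference of the blockade passed for Slc2a3 alone (1.14 ± 0.26, adjusted p = 0.0412), with 0.575% higher and 0.227% lower among all genes. DESeq2 called 6 members for it, adding Tpi1, Ldha, Aldoa, Slc16a3 and Pfkp, all higher in CD8 cells. Over all genes DESeq2 called 198 higher and 151 lower. The edgeR call was lost in 10 of 12 fits that left out 1 library (all but those without treated CD8 replicate 3 or deficient CD8 replicate 2), with adjusted p up to 0.173. So the 18 and 0 calls of the blockade in CD8 and CD4 cells are not shown to differ gene by gene, except for Slc2a3 (and these 5 in DESeq2). With the marker covariates no member passed for the deletion difference in edgeR, with 5 at an unadjusted p under 0.05, and Slc2a3 passed for the blockade difference (0.98, adjusted p = 0.0211).

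Of 38 further enzymes of sugar use, 31 could be tested. In the CD8 deletion 1 rose and 2 fell, beside 9.65% and 9.61% of all genes: Ldhb, the lactate dehydrogenase subunit that favours pyruvate (2.20 ± 0.38), the mitochondrial glycerophosphate dehydrogenase Gpd2 (-1.43 ± 0.25) and the transketolase Tkt of the pentose phosphate pathway (-0.38 ± 0.12). Under the CD8 blockade 3 rose and 4 fell (8.25% and 5.53% of all genes), among them Gpd2 (1.11 ± 0.25), Tkt (0.45 ± 0.12), Ldhb (-1.29 ± 0.37) and the bifunctional enzyme Pfkfb4 (-1.25 ± 0.29). Ldhb was scarce, at 2.46 ± 0.465 CPM for floxed, 11.3 ± 1.17 CPM for deficient and 4.43 ± 1.94 CPM for treated CD8 libraries (SD, n = 3 each), so that Ldha over Ldhb per length had medians of 256, 43.4 and 198. In the CD4 deletion, where 4.61% of all genes rose and 7.06% fell, 1 rose, Ldhb (1.76 ± 0.37), and 4 fell, among them the transporter Slc2a6 (-1.89 ± 0.27), the hexokinase Hk3 (-2.23 ± 0.44) and Pfkfb4 (-0.94 ± 0.26). The Ldha over Ldhb medians in CD4 cells were 93.5, 31.4 and 82.6. The melanoma sums are highest in the same deficient groups in which Ldhb is highest, and a link between them was not tested. In both cell types the list's median lay within 0.06 of 0 for the deletion and the CD8 blockade.

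Regulators of HIF, from a list of 11 with 10 tested, came next. Hif1a, which encodes HIF-1 alpha, averaged 567 ± 68.9 CPM (floxed), 513 ± 5.68 CPM (deficient) and 873 ± 142 CPM (treated) among CD8 libraries and 1196 ± 252, 1774 ± 86.7 and 2344 ± 93.4 CPM in CD4 cells (SD, n = 3 each). It rose under the blockade in CD8 cells (0.77 ± 0.14, adjusted p = 0.00107) and with the deletion in CD4 cells (0.57 ± 0.14, adjusted p = 0.0115), and was lower in CD8 than in CD4 cells in all 3 conditions (-1.08 to -1.79). Arnt2, a partner of HIF alpha known mainly from neurons, averaged 10.9 ± 2.56 CPM in CD8 cells of floxed mice, 0.747 ± 0.464 CPM in those of deficient mice and 6.63 ± 3.35 CPM under the antibodies. It fell with the deletion (-3.88 ± 0.47) and rose under the blockade (3.16 ± 0.48), and both effects differed from those in CD4 cells (-4.46 ± 0.58, adjusted p = 7.96e-05, and 3.51 ± 0.59, adjusted p = 0.00504). Bach1, a repressor of heme and antioxidant genes, rose with the CD8 deletion (1.04 ± 0.16) and fell with the CD4 deletion (-0.99 ± 0.15). Under the CD8 blockade 2 of the 10 rose and 2 fell, beside 8.25% and 5.53% of all genes. Those that fell were Bach1 (-0.55 ± 0.16) and Cited2 (-0.83 ± 0.27). In each deletion 1 rose and 1 fell, beside 9.65% and 9.61% of all genes in CD8 and 4.61% and 7.06% in CD4 cells.

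Of 32 further targets of hypoxia, 30 were tested. In the CD8 deletion 6 rose and 2 fell (9.65% and 9.61% of all genes): the arginase Arg1 (3.2 ± 0.46) and the glycoprotein Stc2 (2.13 ± 0.39) were among those that rose, and the repressor Bhlhe40 (-1.58 ± 0.26) and the annexin Anxa2 (-0.74 ± 0.16) fell. Arg1, which in tumors is known from macrophages, went from 5.12 ± 0.858 to 47.4 ± 7.98 CPM (SD, n = 3 each). The macrophage marker sums were 1238, 1458 and 2751 CPM in floxed and 2104 to 3808 CPM in deficient CD8 libraries, so that only floxed replicate 3 overlapped. Of the 20 macrophage markers, 19 had a positive fold change (median 0.97), with 7 called higher and 1 lower. Which cells the Arg1 transcripts came from was not tested. In the CD4 deletion 8 rose and 4 fell (4.61% and 7.06%), led by Stc2 (3.73 ± 0.45), the collagen hydroxylase Plod2 (1.39 ± 0.25), Plod1 (-1.33 ± 0.26) and the nitric oxide synthase Nos2 (-2.54 ± 0.62). Under the CD8 blockade 4 rose and 1 fell (8.25% and 5.53%): Anxa2 (1.26 ± 0.16), Bhlhe40 (1.30 ± 0.26), and the nuclear receptor Rora (0.83 ± 0.18) were among those that rose, and Plod1 (-1.02 ± 0.28) fell. Under the CD4 blockade none of the 3 lists had a call in edgeR, with 4, 2 and 5 genes at an unadjusted p under 0.05, and DESeq2 called 1, 0 and 2 genes.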

How the data were processed

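The data are 18 RNA-seq libraries in 6 groups of 3. Reads were counted per gene before deposit with featureCounts 1.5.1 (strand option 2) on the Ensembl 87 annotation of GRCm38, per the file headers, and the deposited values are raw counts. The submitters' processing notes also name STAR and DESeq2. Symbols came from GENCODE M21 for 49326 of the 49671 gene models.

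One edgeR 4.0.16 quasi-likelihood model (R 4.3.3, limma 3.58.1) with TMM scaling was fitted to all 18 libraries, with 12 residual degrees of freedom, after edgeR's filter on low counts left 14080 genes. P-values were adjusted by Benjamini-Hochberg over all of them, with the call threshold at 0.05. Log2 values are given ± SE and levels per library. A count of 3 equals 0.258 to 1.24 CPM. The test was checked on simulated data.

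Alternatives were RLE size factors, no filter, DESeq2 1.42.0, a fit per cell type, a replicate block, the marker sums as covariates, and leaving out each library. Length of the longest coding transcript was added as an alternative after seeing the data. Per-library values are given for members called in a deletion or blockade comparison (those with at least 5 CPM in a group, up to the 8 smallest adjusted p) and for Slc2a1, Hk2, Ldha, Pdk1, Vegfa and Epas1. Of the further lists the 4 smallest adjusted p per comparison are named. The members, lists and tests were chosen with earlier results of these data known. Same-numbered CD8 and CD4 libraries deviated together in deficient (r = 0.40, 0.28 and 0.26) and treated mice (0.25, 0.16 and 0.37), across 5000 genes, and not in every pair of the other comparisons.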

Additional observations from a re-analysis of the deposited data

Results flagged for a closer look

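The effect of the deletion or of the blockade differed between CD8 and CD4 cells for 9 genes, by the interaction test of edgeR's quasi-likelihood model (log2 CD8 minus CD4 ± SE, 12 libraries in each test). For the deletion the values were -1.45 ± 0.26 for Slc2a3 (adjusted p = 0.000934), -0.81 ± 0.17 for Pfkp (adjusted p = 0.00265), -0.8 ± 0.21 for Egln1 (adjusted p = 0.0131) and -3.37 ± 0.83 for Epas1 (adjusted p = 0.0154). They were -0.86 ± 0.23 for Hk1 (adjusted p = 0.0169), -1 ± 0.27 for Mxi1 (adjusted p = 0.0199), -0.58 ± 0.16 for Ldha (adjusted p = 0.0214) and -0.58 ± 0.17 for Aldoa (adjusted p = 0.027). Vegfa had the opposite sign, 1.94 ± 0.51 (adjusted p = 0.0184). Over all genes 4.72% were lower and 6.89% higher for the deletion. The calls of Vegfa, Hk1, Ldha, Aldoa and Mxi1 were lost in 1 to 7 of 12 fits that left out 1 library. With the marker covariates no deletion difference passed. For the blockade the value was 1.14 ± 0.26 for Slc2a3 (adjusted p = 0.0412), where 0.575% of all genes were higher and 0.227% lower. This call was lost in 10 of 12 fits that left out 1 library. Macrophage markers differed between the cell types under the deletion as well, with 14 of 20 higher in the same test (median 2.85). Epas1 was -2.12 without floxed CD8 replicate 1.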

How the results depend on the processing

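The counts of members called were 11, 7, 18 and 0 for the deletion in CD8 and CD4 cells and the blockade in CD8 and CD4 cells, 14, 17 and 7 for CD8 against CD4 in floxed, deficient and treated mice, and 9 and 1 for the differences of deletion and blockade. A replicate block gave 11 for the CD4 deletion in place of 7 and left the other counts within 1.5 times. Of the CD8 blockade calls 1, Pdk1, was lower under the block (19 were higher), and also with RLE size factors, no filter, CD8 libraries alone and DESeq2. For CD8 against CD4 cells the block gave 16 in deficient and 7 in treated mice. The block is a factor of replicate number shared by all 6 groups. A pairing of CD8 with CD4 libraries within each condition was not fitted. Without a filter on low counts the CD4 blockade had 1 call (Slc2a3) and the blockade difference 2. DESeq2 gave 6 for the blockade difference. With the marker covariates the counts were 0 and 0 for the deletion, 9 for the CD8 blockade, 2 for floxed and 2 for treated mice, and 0 for the deletion difference. The cause was not tested.

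Leaving out 1 library gave 8 to 11 calls for the CD8 deletion, 3 to 9 for the CD4 deletion, 8 to 19 for the CD8 blockade, 0 for the CD4 blockade in edgeR, 4 to 6 for treated mice, 6 to 11 for the deletion difference and 0 to 1 for the blockade difference. These fits have fewer samples.

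The sign turned with the covariates for Hk2 (CD8 deletion -0.46, CD4 blockade 0.08), Slc2a1 (CD4 deletion -0.56), Vegfa (CD4 deletion -0.42, CD8 blockade 0.44, CD4 blockade 0.24), Pdk1 (CD4 blockade 0.14), and for Egln1 (-0.13) and Epas1 (-1.42) in CD8 against CD4 cells of floxed mice. Without 1 library Hk2 ranged from -0.13 to 0.21 for the CD8 deletion, Slc2a1 from -0.21 to 0.29 for the CD4 deletion and Ldha from -0.02 to 0.09 for the CD4 blockade.

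Over all genes, calls moved from 20 to 541 for the CD4 blockade and from 113 to 665 for the blockade difference without a filter, to 65 and 179 with the block and to 176 and 349 with DESeq2. The covariates gave 117 (from 2712) and 9 (from 1643) for the deletion in CD8 and CD4 cells, 749 (from 1941) and 6 for the blockade, 464 (from 5506), 1455 (from 2196) and 1415 (from 2870) for CD8 against CD4, and 128 (from 1634) and 217 for the differences. Without 1 library the lowest counts were 1641, 783 and 919 for the CD8 deletion, CD4 deletion and CD8 blockade, 1331 and 1862 for CD8 against CD4 in deficient and treated mice and 49 for the blockade difference, and the CD4 blockade ranged from 0 to 106.

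With 3.2 M counts in the shallowest library, scarce genes such as Adm and P4ha2 rest on few counts.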
